A study of Cavia porcellus with 35 samples.

Results

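The NMDA receptor subunits were followed in the prefrontal cortex of juvenile guinea pigs after prenatal exposure to a synthetic glucocorticoid (sGC). The members were the genes GRIN1, GRIN2A, GRIN2B, GRIN2C, GRIN2D and GRIN3A, taken by symbol without regard to case. Of these 6 genes, 5 were found in all 4 count tables, among 12100 genes listed in at least 1 table and 10949 listed in all of them, and GRIN2D was not analysed here. RNA had been sequenced from 35 animals at postnatal day 40, with 1 library per animal. The F1 animals were born to mothers given repeated courses of betamethasone in late pregnancy, or saline for the controls. The F2 and F3 animals descended from exposed or control F1 males, through males mated with females from outside the experiment, and were not themselves treated. The groups were 4 control and 4 sGC females in each of the F1, F2 and F3 generations, and 5 control and 6 sGC males of the F1 generation. According to the study's methods, the animals had been chosen for sufficient RNA of high quality. No strain is given for these animals in the sources used here, and no gene had been altered in them.

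NMDA receptors are cation channels of excitatory synapses, most of them glutamate-gated. Most open only when glutamate and a co-agonist, glycine or D-serine, are bound and depolarization has relieved a block by magnesium. Each channel holds the obligatory GluN1 subunit, encoded by GRIN1, together with GluN2 subunits (GRIN2A to GRIN2D) or GluN3 subunits, which set its kinetics, its calcium entry and its partners. In the forebrain GluN2B predominates early and GluN2A is added during postnatal maturation, so the balance of GRIN2A and GRIN2B is commonly followed in the juvenile cortex.

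Assigned reads per library numbered 13908007 to 16951061 in F1 females, 12819964 to 17052339 in F2 females, 14135131 to 19551079 in F3 females and 25697953 to 31763585 in F1 males. Levels are given as CPM, reads of a gene relative to the library total, with TMM factors set within a table. Gene length was not corrected for, so levels were compared between animals and not between genes. The tissue label names prefrontal cortex, whereas the extraction protocol names the paraventricular nucleus. Markers of that nucleus (OXT, AVP, CRH and SIM1 where listed) summed to between 6.6 and 19.3 CPM in every animal, and those of cortical glutamatergic neurons to between 1722 and 6000 CPM. Markers of striatal medium spiny neurons differed between the F1 female groups. Their summed level was 2710, 594, 923 and 2569 CPM in the 4 F1 female controls and 249 to 628 CPM in the 4 F1 female sGC animals. In the sGC group 5 of the 8 markers tested were lower, and the median log2 fold change was -2.34. In F3 females the sum was 334, 641, 1019 and 504 CPM in the controls and 208 to 475 CPM in the sGC animals, with 0 of 8 markers called and a median log2 fold change of -0.80, and F3 control 3 lay above F1 controls 2 and 3. The same sum lay between 138 and 254 CPM in F2 females and between 115 and 162 CPM in F1 males. The 2 F1 female controls with the highest sums, numbered 1 and 4, were therefore also left out together, a choice made after seeing the data. Controls 1 and 4 were also the 2 highest of the 4 for GRIN1, GRIN2A and GRIN2B. Leaving them out therefore raises these fold changes and is no independent check of them.

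**Figure D1:**
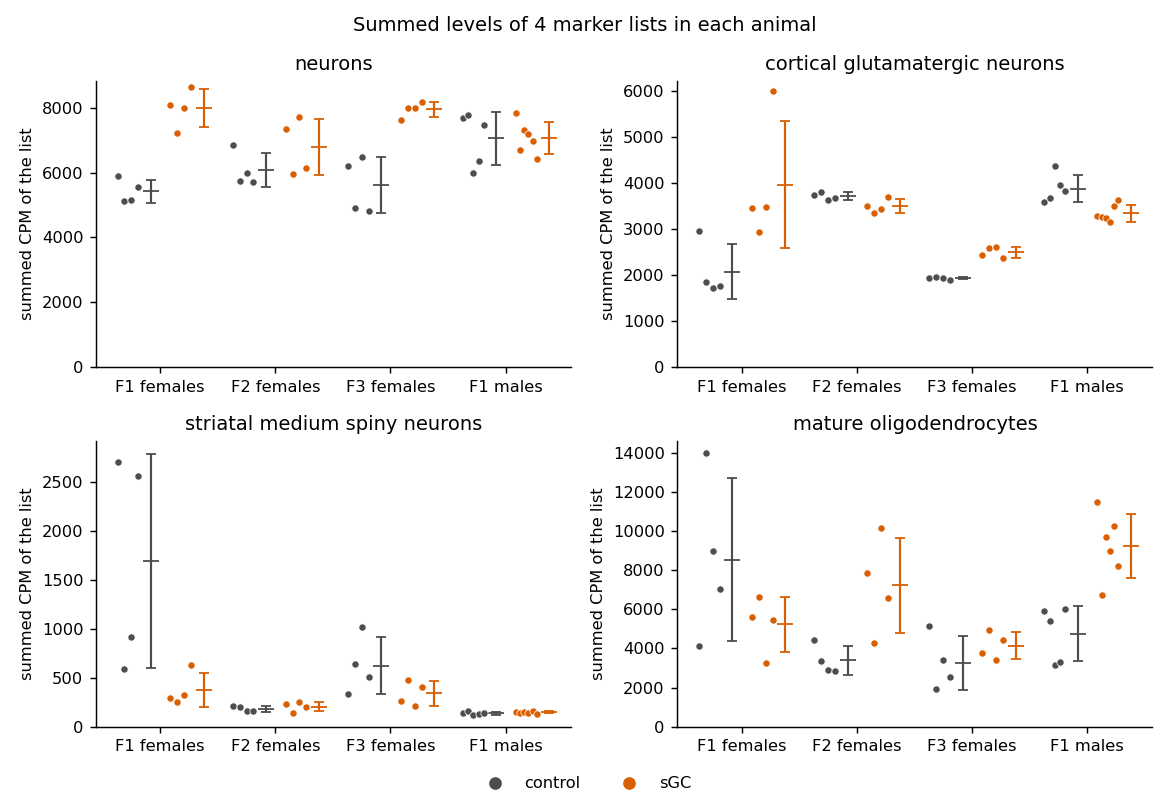
Summed CPM of the genes in 4 marker lists (vertical axes, from 0) for each animal, by table (horizontal axes), with control animals in grey and sGC animals in orange. Points are animals and bars are the mean ± SD. The F1 female controls spread from 594 to 2710 CPM for striatal markers, and the 6 sGC F1 males (6739 to 11462 CPM) lay above the 5 control males (3140 to 6002 CPM) for mature oligodendrocyte markers.

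The first question was whether sGC exposure moved any subunit within a table. GRIN1 was higher in sGC F1 females, and among the 5 subunits in the 4 tables it was the only call of the main test, the quasi-likelihood test of edgeR with an FDR threshold of 0.05. In F1 females, 1 of 5 subunits was called, where 16.5% of all genes tested were called (9.21% higher and 7.33% lower in sGC animals, or 1038 and 826 genes, against 803 and 1088 with upper-quartile normalization). In F2 females it was 0 of 5 beside 0.278% of all genes (0.153% higher, 0.126% lower), in F3 females 0 of 5 beside 1.34% (1.07% higher, 0.271% lower), and in F1 males 0 of 5 beside 9.22% (5.74% higher, 3.48% lower). An unadjusted p under 0.05 was reached by 2 subunits in F1 females, 0 in F2 females, 3 in F3 females and 2 in F1 males, beside 34.2%, 16.1%, 17.3% and 25.2% of all genes. With DESeq2 the calls numbered 2, 0, 2 and 1 in the same order, beside 21.5%, 4.25%, 5.53% and 13.8% of all genes, and with the likelihood ratio test likewise 2, 0, 2 and 1, beside 18.6%, 4.8%, 5.39% and 12.2%. The shares over all genes themselves depended on single animals. Without 1 animal at a time the quasi-likelihood test called 613 to 2115 genes in F1 females (1864 with all animals), 0 to 487 in F2 females (31), 20 to 598 in F3 females (153) and 667 to 1613 in F1 males (1062). The sGC and control animals did not overlap for 2 of 5 subunits in F3 females, beside 10.3% of all genes, and for 0 of 5 in F1 females, F2 females and F1 males, beside 23.2%, 8.09% and 6.26%. The fitted changes were higher for 4 of 5 subunits in both F1 and F3 females, with GRIN2C the exception in each, and for 2 of 5 in both F2 females and F1 males. The median log2 fold change over the 5 subunits was 0.24 in F1 females, -0.08 in F2 females, 0.24 in F3 females and -0.06 in F1 males, beside medians between -0.03 and 0.01 over all genes tested.

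**Figure D2:**
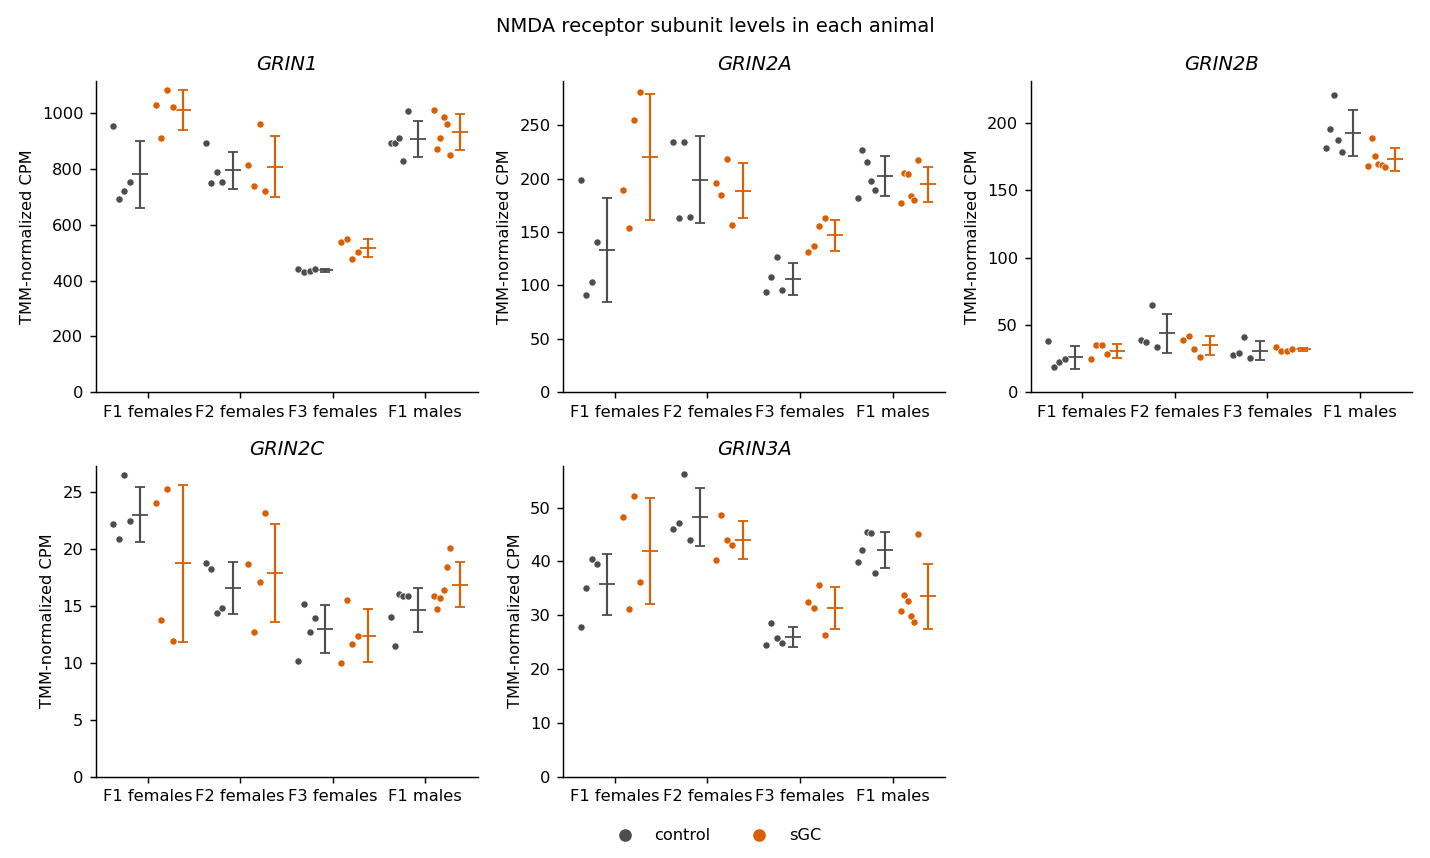
TMM-normalized CPM of 5 NMDA receptor subunits (vertical axes, from 0, a different scale in each panel) in every animal, by table (horizontal axes), with control animals in grey and sGC animals in orange. Points are animals and bars are the mean ± SD. The sGC animals lay above all controls in F3 females for GRIN1 and GRIN2A, and GRIN2B was at 167 to 221 CPM in F1 males and at 18.3 to 64.7 CPM in all females. The tables had been counted separately.

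GRIN1 encodes the subunit that every NMDA receptor needs. In F1 females it stood at 956, 692, 722 and 755 CPM in the controls and at 1029, 913, 1082 and 1024 CPM in the sGC animals. All but 1 of the sGC animals exceeded every control, the exception lying below the single high control, so the groups overlapped. The means were 781 ± 119 and 1012 ± 71.2 CPM (SD, n = 4 each), a log2 fold change of 0.37 (SE 0.11, FDR 0.0427). This call is close to its threshold. It was lost (FDR 0.0867 to 0.1137) without control 2, 3 or 4 or sGC animal 1, 3 or 4 and with upper-quartile normalization (FDR 0.0576). It was kept without controls 1 and 4 (log2 fold change 0.54, FDR 0.0149). These were the 2 highest controls for GRIN1, so leaving them out raises the fold change.

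Markers of neurons moved in the same direction in F1 females. Of 5 neuronal markers tested, 4 were higher in sGC animals, and their summed level was 5135 to 5882 CPM in the control group against 7215 to 8632 CPM, with none of them at 0. Markers of cortical glutamatergic neurons summed to 1722 to 2963 CPM in the control group against 2942 to 6000 CPM. Of these markers 0 of 4 were called, with a median log2 fold change of 1.93. Of the astrocyte markers 3 of 6 and of the microglial markers 4 of 5 were lower. Sums of mature oligodendrocyte markers were 4117 to 14012 CPM in the control group against 3253 to 6610 CPM. Of these markers 0 of 6 were called, with a median log2 fold change of -0.72. The part of all these markers in the GRIN1 and other F1 female subunit values was not tested. In bulk tissue, more cells of a type and more RNA per cell cannot be told apart.

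In F3 females GRIN1 was at 440.8, 430.4, 434.4 and 440.3 CPM in the controls and at 537, 547, 476 and 503 CPM in the sGC animals. The controls were almost level and every sGC animal lay above them. The log2 fold change was 0.24 (SE 0.06), and it missed the threshold in the quasi-likelihood test (FDR 0.0672) but passed it in the likelihood ratio test (FDR 0.0208) and in DESeq2 (FDR 0.0019). Of the neuronal markers in F3 females 2 of 5 were higher, with sums of 4829 to 6491 CPM in the control group against 7616 to 8190 CPM. Sums of the cortical glutamatergic markers also separated, at 1902 to 1967 CPM in the F3 controls and 2364 to 2613 CPM in the F3 sGC females (0 of 4 called, median log2 fold change 0.64). Those of GABAergic interneurons ran lower under sGC, at 561 to 762 CPM against 490 to 573 CPM (1 of 6 called, higher), as did the striatal sums given above. The part of these markers in the GRIN1 and GRIN2A values was not tested.

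In F2 females GRIN1 was at 892, 748, 789 and 754 CPM in the controls and at 816, 738, 961 and 721 CPM in the sGC animals, which overlapped fully. The log2 fold change was 0.02 with a 95% interval of -0.19 to 0.24. Mature oligodendrocyte markers in F2 females summed to 2867 to 4437 CPM in the controls and 4301 to 10134 CPM in the sGC animals. Their median log2 fold change was 1.11 (0 of 6 called). It was -0.72 for upper-layer and 0.54 for deep-layer neuron markers (0 of 5 called in each). The part of these markers in the F2 female subunit values was not tested. In F1 males the controls were at 893, 892, 913, 828 and 1007 CPM, and the 6 sGC animals ranged from 851 to 1013 CPM with a median of 937 CPM. The male change was 0.04 (95% interval -0.09 to 0.17), so no difference between the male groups was detectable beyond their spread.

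GRIN2A encodes GluN2A, the GluN2 subunit that gains ground as the forebrain matures. In F1 females it was at 199, 90.6, 103 and 141 CPM in the controls and at 189, 153, 255 and 282 CPM in the sGC animals. Both groups spread widely, and control 1 was higher than 2 of the 4 sGC animals. The means were 133 ± 48.5 and 219.8 ± 59.0 CPM (n = 4 each) and the log2 fold change was 0.72 (95% interval 0.11 to 1.33), with an FDR of 0.0946. The threshold was passed in the likelihood ratio test (FDR 0.0464), in DESeq2 (FDR 0.0280) and in a single fit of all 8 groups (FDR 0.0031). It was also passed without control 1 (log2 fold change 1.00, FDR 0.0253) and without controls 1 and 4 (1.21, FDR 0.0242). These were the 2 highest controls for GRIN2A, so leaving them out raises the fold change.

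In F3 females GRIN2A was at 93.3, 108, 127 and 95.7 CPM in the controls and at 132, 137, 156 and 163 CPM in the sGC animals. As for GRIN1, every sGC animal lay above every control, here with the highest control and the lowest sGC animal close together. The log2 fold change was 0.47 (SE 0.11, FDR 0.0665), and it passed the threshold in the likelihood ratio test (FDR 0.0026), in DESeq2 (FDR 0.0019) and without control 3 (0.57, FDR 0.0382).

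In F2 females GRIN2A was at 234.5, 163, 234.0 and 164 CPM in the controls and at 196, 184, 218 and 157 CPM in the sGC animals. The controls fell into a higher and a lower pair that enclosed 3 of the 4 sGC animals, and the log2 fold change was -0.08 (95% interval -0.39 to 0.23). In F1 males the controls were at 182, 227, 216, 198 and 189 CPM, and the sGC animals ranged from 177 to 218 CPM with a median of 194 CPM. The male change of -0.06 (95% interval -0.20 to 0.09) was within the spread of the animals.

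**Figure D3:**
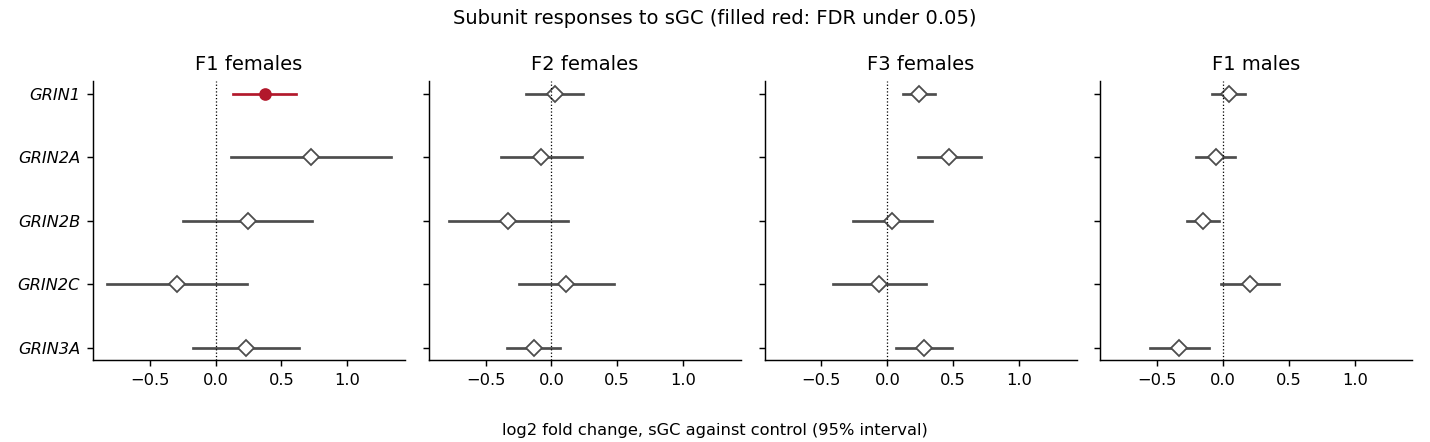
Log2 fold change of sGC against control animals (horizontal axes) for 5 NMDA receptor subunits (rows) in the 4 tables (panels), with 95% intervals from the quasi-likelihood fit. The filled red point is the one value with an FDR under 0.05, GRIN1 in F1 females at 0.37, and the intervals of GRIN1, GRIN2A and GRIN3A in F3 females lie above 0 without passing the adjusted threshold.

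GRIN2B encodes GluN2B, the GluN2 subunit of early development, which binds calcium/calmodulin-dependent kinase II. In F1 males it was at 182, 195, 221, 187 and 178 CPM in the controls, and the 6 sGC animals ranged from 167 to 189 CPM with a median of 169 CPM. Of the sGC males 5 of 6 lay below every control, and the remaining 1 lay within their range. The log2 fold change was -0.16 (SE 0.06), with an unadjusted p of 0.0151 and an FDR of 0.0982.

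The females had far fewer GRIN2B reads, 265 to 827 per library beside 4580 to 6259 in males. Male libraries were deeper and the tables had been counted separately, so sex and the counting of a table cannot be told apart here. In F1 females GRIN2B was at 38.0, 18.3, 22.4 and 24.5 CPM in the controls and at 24.3, 34.9, 34.8 and 28.6 CPM in the sGC animals, with a log2 fold change of 0.24 (95% interval -0.25 to 0.73). Leaving out 1 animal at a time, this change ranged from 0.11 to 0.51 (lowest FDR 0.0513). Without controls 1 and 4, the 2 highest, it was 0.61 (FDR 0.0539). In F2 females GRIN2B was at 38.8, 37.2, 64.7 and 33.6 CPM in the controls and at 38.9, 42.0, 31.7 and 26.2 CPM in the sGC animals. That log2 fold change of -0.33 (95% interval -0.78 to 0.13) came to -0.08 without control 3, the animal at 64.7 CPM. In F3 females it was at 27.5, 29.4, 41.1 and 25.5 CPM in the controls and at 33.4, 30.7, 30.3 and 32.2 CPM in the sGC animals, which sat close together inside the controls' range (log2 fold change 0.04, 95% interval -0.26 to 0.34). With all animals kept, no female table thus showed a GRIN2B difference beyond the spread of its animals.

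GRIN2C encodes GluN2C, a subunit best known from cerebellar granule cells and also found in glia and some interneurons. It was covered by 166 to 552 reads per library. In F1 females it was at 22.2, 20.9, 26.5 and 22.5 CPM in the controls and at 24.1, 13.8, 25.3 and 11.9 CPM in the sGC animals. The sGC animals fell into a pair at the level of the controls and a pair well below them, and the log2 fold change was -0.29 (95% interval -0.82 to 0.24). The controls and sGC animals overlapped in the other tables as well, with ranges of 14.4 to 18.8 and 12.8 to 23.2 CPM in F2 females, 10.2 to 15.2 and 10.01 to 15.5 CPM in F3 females, and 11.5 to 16.04 and 14.7 to 20.1 CPM in F1 males. Their log2 fold changes were 0.11, -0.06 and 0.20, and the male value had the smallest p of the gene (0.0654, FDR 0.2352).

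GRIN3A encodes GluN3A, a subunit that lowers calcium permeability and magnesium block and is most abundant in early postnatal life. In F1 males it was at 39.9, 42.1, 45.4, 45.3 and 37.9 CPM in the controls, and the 6 sGC animals ranged from 28.8 to 45.2 CPM with a median of 31.7 CPM. The sGC males other than number 6 lay between 28.8 and 33.7 CPM, below every control, and number 6 was among the highest controls. The log2 fold change was -0.33 (SE 0.10, FDR 0.0602), and it was -0.44 (FDR 0.0027) without sGC animal 6. It also passed in the likelihood ratio test (FDR 0.0245) and in DESeq2 (FDR 0.0225).

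Markers of mature oligodendrocytes moved with the male groups, with 6 of 6 markers tested higher in sGC males and sums of 3140 to 6002 CPM in controls and 6739 to 11462 CPM in sGC males. None of them was at 0. Sums of the general neuronal markers overlapped (5992 to 7766 and 6420 to 7835 CPM, 0 of 5 called). Of the GABAergic interneuron markers 2 of 7 were lower in sGC males. Their sums were 649 to 804 CPM in the controls, 601 to 637 CPM in sGC males 1 to 5 and 741 CPM in sGC male 6, the animal that also stood apart for GRIN3A. Cortical glutamatergic sums were 3603 to 4369 CPM in the controls, 3149 to 3513 CPM in sGC males 1 to 5 and 3630 CPM in sGC male 6, with 0 of 4 markers called. The part of these markers in the GRIN3A and GRIN2B values was not tested.

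In F3 females the opposite direction was fitted for GRIN3A, at 24.4, 28.6, 25.7 and 24.9 CPM in the controls and 32.4, 31.3, 35.7 and 26.3 CPM in the sGC animals. All but 1 of the sGC animals exceeded every control, and the log2 fold change was 0.28 (SE 0.10), with an unadjusted p of 0.0163 and an FDR of 0.1788. The F1 female groups overlapped, with controls at 27.8 to 40.4 CPM, sGC animals at 31.2 to 52.2 CPM and a change of 0.23 (95% interval -0.17 to 0.64). So did the F2 female groups, with controls at 44.0 to 56.2 CPM, sGC animals at 40.2 to 48.7 CPM and a change of -0.14 (95% interval -0.33 to 0.06).

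Ratios of reads between subunits were compared next, since a ratio within a library does not depend on its depth. They carry the unknown lengths of both genes, so a ratio of 1 does not mean equal transcript numbers. The tables had been counted separately, so for a ratio that differs between tables, sex or generation and the counting cannot be told apart. In all, 5 ratios in each of 4 tables gave 20 exact two-sided permutation tests over animals, and none passed after adjustment (lowest adjusted p = 0.4286). With 4 animals against 4, the smallest p that this test can give is 0.0286.

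The GRIN2A to GRIN2B ratio was higher in sGC animals of every table by its mean, and the groups separated in F3 females. There it was 3.39, 3.67, 3.08 and 3.75 in the controls and 3.94, 4.45, 5.14 and 5.05 in the sGC animals. The means were 3.47 ± 0.305 and 4.64 ± 0.562 (SD, n = 4 each), a 1.33-fold difference with an exact permutation p of 0.0286 (adjusted over 20 tests, 0.4286). A difference of medians gave an exact p of 0.0571.

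In F1 females the ratio was 5.23, 4.94, 4.60 and 5.74 in the controls and 7.79, 4.40, 7.34 and 9.83 in the sGC animals. Of the sGC animals 3 of 4 exceeded every control and the remaining 1 lay below them all, a 1.38-fold difference with an exact permutation p of 0.1429. Without that animal, sGC animal 2, the difference was 0.69 on the log2 scale. The exact permutation p of 0.0286 is then the smallest that 3 animals against 4 can give. It reflects which animal was left out. In F2 females it was 6.04, 4.38, 3.61 and 4.89 in the controls and 5.04, 4.39, 6.88 and 5.98 in the sGC animals (1.18-fold, exact permutation p = 0.2571). In F1 males it was 1.00, 1.16, 0.977, 1.06 and 1.06 in the controls and ranged from 1.06 to 1.30 in the sGC animals with a median of 1.09 (1.07-fold, exact permutation p = 0.1667).

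**Figure D4:**
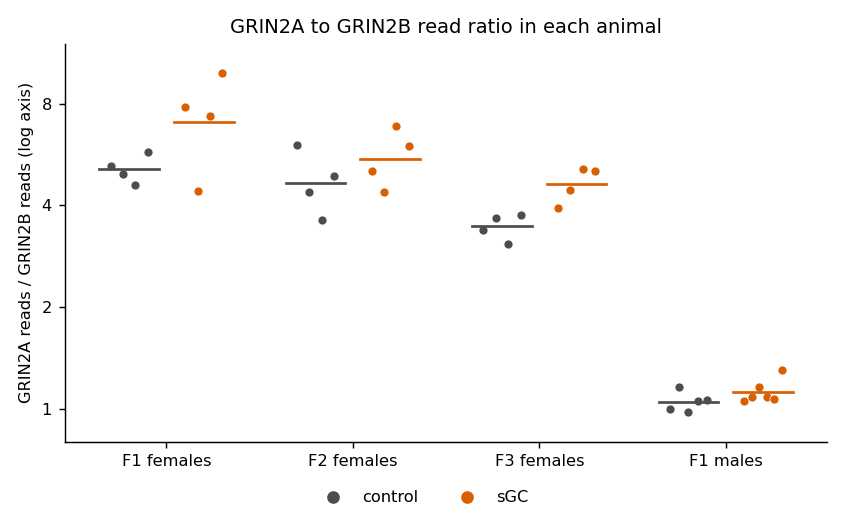
GRIN2A reads divided by GRIN2B reads (vertical axis, log scale) in every animal, by table (horizontal axis), with control animals in grey and sGC animals in orange. Points are animals and lines are geometric means. The 4 sGC F3 females (3.94 to 5.14) lie above the 4 control F3 females (3.08 to 3.75), and all F1 males lie near 1, between 0.977 and 1.30. The tables had been counted separately.

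Of the ratios to GRIN1, that of GRIN3A in F1 males had the smallest exact p. It was 0.0447, 0.0472, 0.0498, 0.0547 and 0.0376 in the controls and ranged from 0.0299 to 0.0531 in the sGC animals with a median of 0.0331, a 0.765-fold difference (exact permutation p = 0.0541, adjusted 0.4286). The GRIN2B to GRIN1 ratio in F1 males was 0.2135 ± 0.0247 (n = 5) in the controls and 0.1865 ± 0.0190 (n = 6) in the sGC animals (exact permutation p = 0.0693). The GRIN2C to GRIN1 ratio in F1 females was 0.0300 ± 0.0055 in the controls and 0.0184 ± 0.0060 in the sGC animals (n = 4 each, exact permutation p = 0.0857). The other ratios to GRIN1 gave exact permutation p-values of 0.1714 and above.

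Whether the response differed between sexes or generations was tested as an interaction in 4 pairs of tables. The F1 females and F1 males differed in 3 of 5 subunits, where 31.7% of all genes tested differed. The response in males was lower than that in females by 0.34 on the log2 scale for GRIN1 (difference -0.34, SE 0.12, FDR 0.0361), by 0.78 for GRIN2A (difference -0.78, SE 0.26, FDR 0.0280) and by 0.57 for GRIN3A (difference -0.57, SE 0.21, FDR 0.0408). The fitted responses were 0.37 in females and 0.04 in males for GRIN1, 0.72 and -0.06 for GRIN2A, and 0.23 and -0.33 for GRIN3A. GRIN2B (difference -0.40, 95% interval -0.83 to 0.03) and GRIN2C (difference 0.49, 95% interval -0.03 to 1.00) did not pass.

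These 3 calls depended on single animals. Leaving out each of the 19 animals in turn, GRIN2A passed in 15 fits and was lost without F1 female control 2 or 3 or sGC animal 3 or 4 (FDR 0.0596 to 0.0682). GRIN1 passed in 8 of these 19 fits and GRIN3A in 7, and upper-quartile normalization left GRIN2A alone (GRIN1 FDR 0.0516, GRIN3A FDR 0.0597). Without F1 female controls 1 and 4, the calls were GRIN1 (difference -0.49, FDR 0.0016), GRIN2A (-1.25, FDR 0.00035) and GRIN2B (-0.76, FDR 0.0014), and GRIN3A was lost (FDR 0.1090). For GRIN1, GRIN2A and GRIN2B these were the 2 highest F1 female controls, so leaving them out widens the differences.

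Between F1 and F2 females 0 of 5 subunits differed, beside 13.8% of all genes, and between F1 and F3 females 0 of 5 differed, beside 0.0981%. Between F2 and F3 females it was 0 of 5 beside 0.018%. Without F1 female controls 1 and 4, the 2 highest for both genes, GRIN1 (difference -0.52, FDR 0.0223) and GRIN2A (-1.29, FDR 0.0082) differed between F1 and F2 females. Without control 1 alone both also passed (FDR 0.0221 and 0.0191), and without F2 female sGC animal 3 GRIN1 passed (FDR 0.0440). In the full data the F2 less F1 difference was -0.36 for GRIN1 (95% interval -0.68 to -0.03) and -0.80 for GRIN2A (95% interval -1.50 to -0.11), with FDR values of 0.1310 and 0.1119.

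Levels were also set side by side across the tables, after scaling all 35 libraries together. The tables had been counted separately, so that sex or generation and the counting of a table cannot be told apart. GRIN2B showed the widest gap of the subunits between male and female controls. It averaged 204 CPM in control F1 males and 27.1 CPM in control F1 females, 7.53-fold apart, and 0.703% of 10949 genes differed at least as far between these groups. It was 4.48-fold above F2 female controls and 7.08-fold above F3 female controls, where 1.09% and 0.849% of genes were as far apart. The male level of GRIN2A was 1.53-fold that of the F1 female controls, a gap met or passed by 14.5% of genes.

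GRIN1 had its lowest levels in F3 females. In order, it averaged 1065 CPM in sGC F1 females, 984 and 959 CPM in sGC and control F1 males, 842 and 831 CPM in sGC and control F2 females, 818 CPM in control F1 females, and 486 and 407 CPM in sGC and control F3 females. Neighbouring groups in this order overlapped down to the F1 female controls, and the pair of F3 groups overlapped neither those above nor each other. The F3 controls were at 0.497 times the F1 female controls, a gap met or passed by 7.22% of genes. GRIN2A likewise ran from 231 CPM in sGC F1 females to 98.7 CPM in control F3 females, with neighbours overlapping except for the sGC and control F3 females. For GRIN2B the male groups (204 and 183 CPM) overlapped each other and stood above all females (27.1 to 45.5 CPM), and the female groups overlapped in order. GRIN2C ran from 24.1 CPM in control F1 females to 11.7 CPM in sGC F3 females and GRIN3A from 50.5 CPM in control F2 females to 24.1 CPM in control F3 females, and all their neighbours overlapped.

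Among the animals, the subunits did not move as one. The log2 CPM of 2 subunits was correlated across all 35 animals after centring each group on its mean, as a description without a test, since the points share library preparation and depth. GRIN2A and GRIN2B moved together in every table (Pearson r = 0.61, Spearman rho = 0.54, and r = 0.57 to 0.71 within the tables). GRIN1 and GRIN2A had r = 0.52 over all animals, but 0.89 in F1 females and 0.77 in F2 females against -0.57 in F3 females and -0.60 in F1 males. GRIN1 and GRIN3A had r = -0.28, and -0.74 in F1 males.

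By the same measure over 10725 genes, the genes most like GRIN1 included CNTNAP1, which encodes an axonal adhesion protein of the paranode (r = 0.93), and Thy1, for a neuronal surface glycoprotein (0.86). For GRIN2A they included ASAP1 (0.88) and the serotonin receptor gene HTR2A (0.86). For GRIN2B they were RNF150 (0.89), NCOA6 (0.88) and LRRC7 (0.87), the last encoding densin-180 of the postsynaptic density. GRIN2C had weaker neighbours, led by ADORA2B, AOC3 and SLC25A39 (0.75 each), and so had GRIN3A, with LSAMP (0.76), CLEC4G (0.70) and AFF2 (0.70). Within single tables these values ran lower in places, such as r = 0.24 for HTR2A in F1 males, 0.49 for Thy1 in F3 females and 0.24 for CLEC4G in F2 females. Leaving out the 2 animals farthest from the median changed the value of the first gene named for each subunit to 0.88, 0.85, 0.82, 0.72 and 0.69 in the order given.

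The genes that supply, anchor and modulate the receptor were taken from 5 lists of 64 genes. In F1 females 15 of 57 list genes tested were higher and 4 lower in sGC animals, 33.3% of them called beside 16.5% of all genes, with a median log2 fold change of 0.08. Among cell type markers in F1 females, 4 of 5 neuronal ones were higher and 3 of 6 astrocyte, 4 of 5 microglial, 5 of 8 striatal and 2 of 7 GABAergic interneuron markers were lower. The part of the markers in the list changes was not tested. Pathway and marker lists share SLC17A7 and CAMK2A (cortical glutamatergic), SLC1A2 and SLC1A3 (astrocyte) and RASGRF2 (upper-layer), so their changes are not fully separate observations. In F2 females 0 of 58 list genes were called by the quasi-likelihood test, beside 0.278% of all genes. The likelihood ratio test called 4 and DESeq2 6 (beside 4.8% and 4.25% of all genes). In F3 females 1 of 57 was called, 1.75% beside 1.34% of all genes. The likelihood ratio test called 10 there and DESeq2 11 (beside 5.39% and 5.53% of all genes). In F1 males 2 of 58 were higher and 5 lower, 12.1% beside 9.22% of all genes. The likelihood ratio test and DESeq2 each called 11 in F1 males (beside 12.2% and 13.8%). The medians in these 3 tables were -0.03, 0.01 and -0.06.

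**Figure D5:**
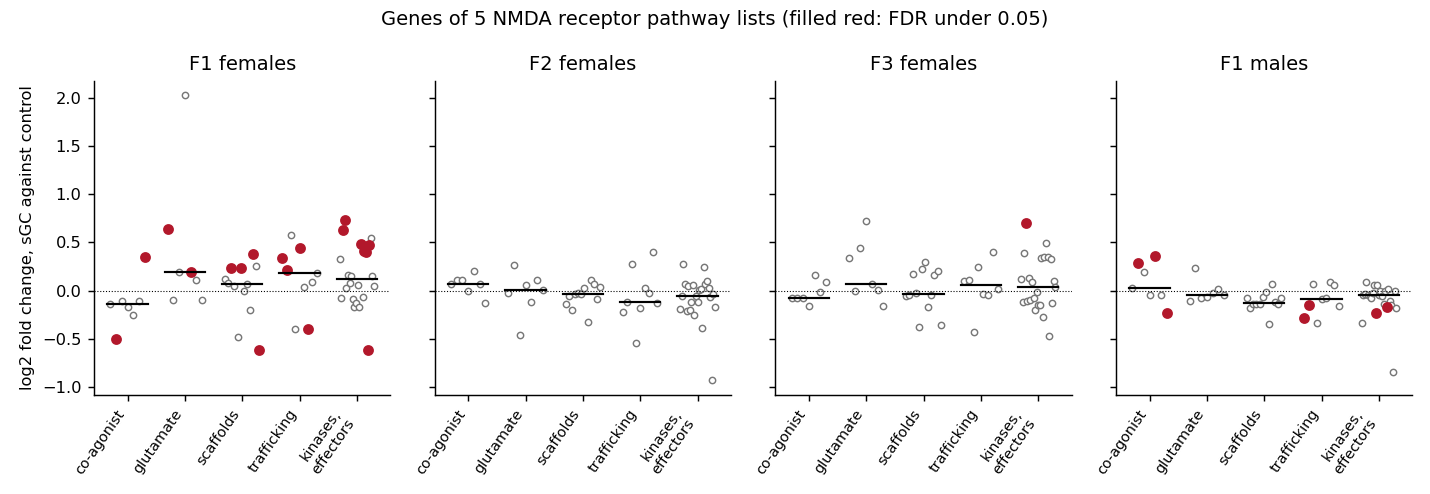
Log2 fold change of sGC against control animals (vertical axis) for every tested gene of 5 NMDA receptor pathway lists (horizontal axes) in the 4 tables (panels). Points are genes, filled red at an FDR under 0.05, and black lines are list medians. F1 females hold 19 filled points, F2 females 0, F3 females 1 and F1 males 7.

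Among the genes that supply the co-agonist, 1 rose and 1 fell of 7 tested in F1 females, 28.6% beside 16.5% of all genes. SRR, serine racemase, which makes D-serine, rose from 34.7 ± 1.65 to 44.2 ± 3.75 CPM (log2 fold change 0.35, FDR 0.0177). PHGDH, the first enzyme of serine synthesis, fell from 95.7 ± 11.5 to 67.4 ± 6.95 CPM (-0.51, FDR 0.0154). In F1 males both were called in the opposite direction, with SRR falling from 40.2 ± 1.33 to 34.2 ± 2.15 CPM (-0.23, FDR 0.0130) and PHGDH rising from 59.3 ± 4.16 to 72.2 ± 5.97 CPM (0.28, FDR 0.0147). The male less female difference was -0.59 for SRR and 0.78 for PHGDH (FDR 0.0001 for each). SLC6A9, the glycine transporter GlyT1, also rose in F1 males (0.36, FDR 0.0115). Thus 3 of 7 co-agonist genes were called there, 42.9% beside 9.22% of all genes.

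Of 7 genes of glutamate supply and uptake, 2 rose in F1 females, 28.6% beside 16.5% of all genes. None was called in F2 females, F3 females or F1 males, beside 0.278%, 1.34% and 9.22% of all genes. SLC1A1, a neuronal glutamate transporter, rose by 0.19 on the log2 scale (FDR 0.0416). SLC17A7, the vesicular glutamate transporter of cortical excitatory neurons, was at 429 ± 378 CPM in the F1 female controls and 1752 ± 1229.9 CPM in the sGC animals, a change that missed the threshold (2.03, FDR 0.0574).

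Of 12 postsynaptic scaffold genes tested, 3 rose and 1 fell in F1 females, 33.3% beside 16.5% of all genes. DLG3, which encodes the membrane-associated guanylate kinase SAP102, rose by 0.23 (FDR 0.0449), DLGAP4 by 0.24 (FDR 0.0487) and SHANK1 by 0.38 (FDR 0.0499), all near the threshold. SHANK3 fell from 247 ± 69.1 to 161 ± 20.1 CPM (-0.62, FDR 0.0432). None of the 12 was called in the other 3 tables, beside 0.278% of all genes in F2 females, 1.34% in F3 females and 9.22% in F1 males. DLG4, for PSD-95, the principal anchor of GluN2 tails, had a log2 fold change of 0.05 in F1 females (FDR 0.717).

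Of 9 trafficking and surface partners tested, 3 rose and 1 fell in F1 females, 44.4% beside 16.5% of all genes. CASK, APBA1 and the LIN7 genes encode an adaptor complex that links receptor vesicles to a kinesin motor. APBA1 rose by 0.34 (FDR 0.0193), CASK by 0.22 (FDR 0.0389) and LIN7A by 0.45 (FDR 0.0417), while LIN7C fell from 80.1 ± 2.79 to 60.8 ± 2.53 CPM (-0.40, FDR 0.0043). In F1 males CASK fell by 0.15 (log2 fold change -0.15, FDR 0.0181) and APBA1 by 0.28 (log2 fold change -0.28, FDR 0.0330). The response in F1 males less that in F1 females was -0.38 for CASK (FDR 0.0003) and -0.63 for APBA1 (FDR 0.0007).

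Of 22 kinases, phosphatases and effectors tested in F1 females, 6 rose and 1 fell, 31.8% beside 16.5% of all genes. PPP3CB, a catalytic subunit of calcineurin, rose from 360 ± 28.5 to 502 ± 26.0 CPM (0.48, FDR 0.0054), and the calcium/calmodulin-dependent kinase genes CAMK2D and CAMK2G rose by 0.63 (FDR 0.0070) and 0.73 (FDR 0.0099). PTPN5, for the striatum-enriched phosphatase STEP that acts on GluN2B, fell from 522 ± 139 to 341 ± 18.6 CPM (-0.62, FDR 0.0388), in the table where striatal markers were lower in sGC animals. In F3 females CAMK2G was the single list gene called, rising from 328 ± 32.8 to 532 ± 26.0 CPM (0.70, FDR 0.0085). In F1 males 2 of 23 genes tested were called, 8.7% beside 9.22% of all genes. Among them was DAPK1, for a death-associated kinase that binds GluN2B, which fell by 0.23 (log2 fold change -0.23, FDR 0.0146).

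Responses of the list genes differed between F1 females and F1 males in 29 of 57 genes, 50.9% beside 31.7% of all genes tested, with 21 lower and 8 higher in males. Between F1 and F2 females 17 of 57 differed (29.8% beside 13.8%), 12 of them lower in F2 females. Between F1 and F3 females 0 of 56 differed in the quasi-likelihood test and 1 in DESeq2 (beside 1.79% of all genes), and between F2 and F3 females it was 0 of 57 and 5 (beside 1.13%). Without F1 female controls 1 and 4, the first 3 of these counts were 31, 24 and 0, and 17 list genes were called in F1 females.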

How the data were processed

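The authors deposited raw counts, not normalized, of single-end mRNA reads for each gene symbol in 4 tables, one each for the F1, F2 and F3 females and the F1 males. The submitters' processing notes name TopHat2 and edgeR, and the genome build and the read counter are not given in the sources used here. Other columns of the tables hold the authors' fold changes and tests and were not used. The members and all lists were chosen with earlier results of these data known.

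The main test used edgeR 4.0.16 (with limma 3.58.1, in R 4.3.3), and DESeq2 1.42.0 was an alternative. Genes passed filterByExpr (count of at least 10, total of at least 15), as did all 5 subunits in every table. After TMM scaling, the sGC effect was fitted in each table separately by the quasi-likelihood test over all genes, with Benjamini-Hochberg adjustment (FDR). The study's likelihood ratio test was an alternative, since it does not carry the uncertainty of the dispersion. Interactions were fitted on pairs of tables. Read ratios (0.5 added to each count) were compared by exact permutation, in 20 tests rather than 24 because GRIN2D was not analysed. Scripts were tested on simulated counts.

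Named were all members, at most 3 called genes per list, table and direction by smallest FDR, and 3 genes by likeness for each member. DLG4 and SLC17A7 were named after their values were seen. Results of some genes that this rule names are not reported here. Females of a group came from separate litters according to the study. For males this is not stated, and p-values measure the spread between these animals. No pair of libraries of the same group agreed within sampling noise, and pairs from different groups were not compared in this way. Alternatives were other tests, scalings and filters, a replicate block, a single fit of 8 groups, and omitted animals.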

Additional observations from a re-analysis of the deposited data

Results flagged for a closer look

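In F2 females, control 3 stood apart from the other 3 controls for GRIN2B, at 64.7 CPM beside 33.6 to 38.8 CPM. The GRIN2B to GRIN1 read ratio of the same animal was likewise high, at 0.0821 beside 0.0435 to 0.0497. In F1 males, sGC animal 6 stood apart for GRIN3A, at 45.2 CPM beside 28.8 to 33.7 CPM in the other sGC males. These 3 were found among 80 sets of values (a subunit level or a read ratio in a group), and chance alone flags about 1 in 20 of such sets.

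The response to sGC differed between F1 females and F1 males, by a test of the interaction, for GRIN1 (male less female -0.34, FDR 0.0361), GRIN2A (-0.78, FDR 0.0280) and GRIN3A (-0.57, FDR 0.0408), beside 31.7% of all genes tested.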

How the results depend on the processing

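The counts and GRIN2A to GRIN2B ratios in this and the next paragraph moved past 1.5 times or across a threshold under another setting. The cause was not tested. Subunits called numbered 2 in F1 females by the likelihood ratio test, DESeq2, the single fit of 8 groups and the fit without controls 1 and 4 (main test 1), and 0 with upper-quartile normalization. In F3 females they numbered 2 by the likelihood ratio test and DESeq2 (main test 0) and in F1 males 1 by both (main test 0). Subunits with a differing response numbered 1 between F1 females and F1 males with upper-quartile normalization (main test 3), and 2 between F1 and F2 females without controls 1 and 4 (main test 0). List genes called numbered 4 and 6 in F2 females by the likelihood ratio test and DESeq2 (main test 0), 10, 11 and 8 in F3 females by these and the single fit (main test 1), and 11 and 11 in F1 males by the first 2 (main test 7). List genes with a differing response numbered 1 by DESeq2 between F1 and F3 females and 3 and 5 by the likelihood ratio test and DESeq2 between F2 and F3 females (main test 0 in both). Over all genes, calls numbered 534 and 473 in F2 females by the likelihood ratio test and DESeq2 (main test 31) and 616 and 632 in F3 females (main test 153), 70 and 76 in F2 females with upper-quartile normalization and with no filter on low counts, and 3327, 10 and 396 in F1, F2 and F3 females in the single fit (main test 1864, 31 and 153). Genes with a differing response numbered 114 and 201 between F1 and F3 females by the likelihood ratio test and DESeq2 (main test 11), 93 and 126 between F2 and F3 females (main test 2), 18 between F1 and F3 females with upper-quartile normalization, 4 between F2 and F3 females with RLE and likewise with upper-quartile normalization, and 369 between F1 and F3 females without controls 1 and 4. The F3 female GRIN2A to GRIN2B difference was 0.43 on the log2 scale by medians (exact permutation p = 0.0571, 0.0286 by means), and the F1 male difference was 0.039 by medians (0.098 by means).

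Leaving out 1 animal at a time, subunits called ranged from 0 to 2 in F1 females, 0 to 1 in F3 females and 0 to 1 in F1 males, and differing responses from 0 to 3 between F1 females and F1 males and 0 to 2 between F1 and F2 females. List genes called ranged from 7 (without control 3) to 21 in F1 females, 0 to 4 in F2 females, 1 to 11 (without control 1) in F3 females and 5 to 13 (without sGC animal 6) in F1 males. Those with a differing response ranged from 10 to 24 between F1 and F2 females and 0 to 2 between F2 and F3 females. The log2 difference of the GRIN2A to GRIN2B ratio ranged from 0.31 to 0.69 in F1 females, 0.12 (without control 3) to 0.36 in F2 females, 0.36 to 0.49 in F3 females (exact permutation p = 0.0571 without any 1 control) and 0.055 (without sGC animal 6) to 0.13 in F1 males. Calls over all genes moved past 1.5 times in F1 females without control 2, 3 or 4 or sGC animal 1, 3 or 4 (lowest 613, without control 3), in F2 females without any 1 animal (highest 487, without sGC animal 2), in F3 females without any 1 animal other than control 3 (highest 598, without control 1, and lowest 20, without control 4), and in F1 males without control 4 or sGC animal 4 or 6 (678, 667 and 1613). Over all genes, differing responses ranged from 808 to 1906 between F1 and F2 females, 1 to 97 between F1 and F3 females and 0 to 44 between F2 and F3 females.

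Direction turned in values that had not passed a test. In leave-one-out fits of F2 females, GRIN1 ranged from -0.076 to 0.080, GRIN2A from -0.16 to 0.0095, GRIN2C from -0.032 to 0.24, the GRIN2A to GRIN1 ratio from -0.14 to 0.0068 and the GRIN2C to GRIN1 ratio from -0.11 to 0.18 (log2 scale), the last also turning to -0.012 by medians. In F3 females GRIN2B ranged from -0.044 to 0.21, GRIN2C from -0.19 to 0.032 and the GRIN3A to GRIN1 ratio from -0.070 to 0.10. The GRIN2B to GRIN1 ratio in F1 females ranged from -0.21 to 0.017 and was 0.064 without controls 1 and 4, and the GRIN3A difference between F1 and F3 females ranged from -0.089 to 0.18. No scaling alternative turned the direction of a subunit within a table.

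The sample labels give replicate numbers without saying that these pair animals across groups. Deviations of same-numbered animals correlated between -0.29 and 0.34. Animals with different numbers were not compared in this way, so the values cannot show whether the numbers mark pairs. With the replicate number as a block, 1 subunit was called in F1 males (GRIN3A, log2 fold change -0.44, FDR 0.0093), 1 in F1 females and 0 in F2 and F3 females, and 11 list genes in F1 females (main test 19). Over all genes it called 1080 in F1 females, 53 in F2 females and 67 in F3 females, with 0 differing responses between F1 and F3 females and 9 between F2 and F3 females. GRIN1 was covered by 6367 reads or more in each library, and GRIN2B and GRIN2C by as few as 265 and 166.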
